A study of Arabidopsis thaliana with 12 samples.

Results

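The 10 genes described here build the secondary cell wall of the Arabidopsis thaliana fruit, or act in its xylem. They were chosen by gene identifier and make up 10 of the 26925 genes listed in each table. The set held the NAC switches NST1 (AT2G46770) and NST3 (AT1G32770), the MYB regulators MYB46 (AT5G12870) and MYB83 (AT3G08500), and the cellulose synthases CESA4 (AT5G44030), CESA7 (AT5G17420) and CESA8 (AT4G18780). It also held the laccases LAC4 (AT2G38080) and LAC17 (AT5G60020) and the xylem protease XCP1 (AT4G35350). RNA was measured in 12 bulk libraries, 3 from each of 4 groups: fruit and seed of wild-type Col-0, and fruit and seed of lhp1-6, a single mutant allele of the Polycomb-associated chromodomain protein LHP1. Siliques were dissected by hand into seeds and the fruit around them. Plants of both genotypes grew at 22 °C before bolting and were then kept in days of 16 °C and nights of 14 °C. Siliques were sampled 14 to 15 days after pollination at the bent-cotyledon stage, with 3 to 5 siliques pooled per library.

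A secondary wall is laid down inside the primary wall once a cell has stopped growing, in xylem vessels, in fibres and, in the silique, in the lignified layers along the valve margin and the inner face of the valves that help the pod open. NST1 and NST3 are NAC factors that switch the programme on in fibres and in the silique, and the related VND factors do so in xylem vessels. Both kinds activate MYB46 and MYB83, which with further MYB factors turn on the genes for cellulose, xylan and lignin. CESA4, CESA7 and CESA8 are the subunits of the cellulose synthase complex of the secondary wall, LAC4 and LAC17 oxidise the lignin precursors in the wall, and XCP1 is a papain-like protease that clears the contents of dying vessel cells.

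Every change below is the mean log2(TPM + 1) of lhp1-6 minus that of Col-0, tested with limma across 19946 genes, with p-values adjusted by the Benjamini-Hochberg method over all of them and a threshold of 0.05. TPM is the transcripts-per-million unit, scaled by gene length, so levels of different genes can be set side by side. The log2(TPM + 1) scale understates changes of genes near 0. The libraries went with their labels at LHP1, which stood at 15.3 to 23.7 TPM in the 6 Col-0 libraries and at 0.31 to 0.858 TPM in the 6 lhp1-6 libraries. FUL, a valve identity gene, stood at 142 to 296 TPM in fruit and at 0 to 0.537 TPM in seed. Fruit libraries also held seed transcripts. The share of seed RNA estimated from seed-abundant genes was 23.3% in Col-0 fruit replicate 1, 3.65% and 5.56% in the other Col-0 fruit libraries and 8.32% to 10.9% in lhp1-6 fruit. The summed TPM of 10 seed storage genes ran from 312 to 3077 in Col-0 fruit and from 6951 to 10572 in lhp1-6 fruit. In seed the same sum was also higher in lhp1-6, at 39833 to 110703 against 7771 to 14201 in Col-0. It therefore does not compare the amount of seed RNA in fruit between the genotypes.

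The stretches around the starts of the 3 cellulose synthase genes are shown because these genes moved together in fruit, and that of XCP1 because it moved the other way. Each runs 5′ to 3′ on the gene's strand, 300 bases from 250 before the first base of the gene, read from the TAIR10.1 assembly with its RefSeq annotation. They lie at chr5:17714140-17714439 on the plus strand for CESA4, at chr5:5741451-5741750 on the minus strand for CESA7, at chr4:10316837-10317136 on the minus strand for CESA8 and at chr4:16810232-16810531 on the plus strand for XCP1. Capitals mark matches to the secondary wall MYB-responsive element, a motif known to be bound by MYB46 and MYB83. It reads ACCNANN, where the first N is A or T, the second A or C and the third C or T, and was searched on both strands.
CESA4: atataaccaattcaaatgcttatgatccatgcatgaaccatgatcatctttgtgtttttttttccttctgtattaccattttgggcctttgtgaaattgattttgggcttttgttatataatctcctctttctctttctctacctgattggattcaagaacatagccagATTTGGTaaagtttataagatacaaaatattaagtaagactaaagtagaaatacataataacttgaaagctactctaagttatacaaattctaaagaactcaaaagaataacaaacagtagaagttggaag
CESA7: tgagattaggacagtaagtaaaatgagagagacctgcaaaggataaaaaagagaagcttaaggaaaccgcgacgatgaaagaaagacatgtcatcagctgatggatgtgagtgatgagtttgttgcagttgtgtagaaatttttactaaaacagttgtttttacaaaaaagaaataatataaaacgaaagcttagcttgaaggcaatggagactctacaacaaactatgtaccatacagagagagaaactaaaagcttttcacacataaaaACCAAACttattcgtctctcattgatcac
CESA8: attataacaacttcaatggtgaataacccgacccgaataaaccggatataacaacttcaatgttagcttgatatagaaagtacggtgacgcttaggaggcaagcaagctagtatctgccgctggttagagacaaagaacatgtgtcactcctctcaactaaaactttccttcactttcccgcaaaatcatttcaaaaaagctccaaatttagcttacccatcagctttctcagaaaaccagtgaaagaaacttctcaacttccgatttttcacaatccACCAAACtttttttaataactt
XCP1: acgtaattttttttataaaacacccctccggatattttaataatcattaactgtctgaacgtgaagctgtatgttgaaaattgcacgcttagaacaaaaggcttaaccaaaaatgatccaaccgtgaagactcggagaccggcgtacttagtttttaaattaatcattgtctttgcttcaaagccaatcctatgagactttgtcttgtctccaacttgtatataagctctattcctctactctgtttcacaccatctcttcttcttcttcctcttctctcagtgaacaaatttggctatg

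CESA4, CESA7 and CESA8 each held 1 match in this window and XCP1 held none. The CESA4 match lay on the opposite strand, from 81 to 75 bases before the first base of the gene. Those of CESA7 and CESA8 had the same letters and lay within the transcribed part, from base 21 to 27 and from base 28 to 34, counting the first base as 0. MYB83 and LAC17 also held 1 match each, and NST1, NST3, MYB46 and LAC4 held none. Of the 10 genes 5 thus held a match, against 33.6% of 27443 windows of the same length at protein-coding nuclear genes and 3 of the 7 other cellulose synthase genes. No other motif was searched, and a match describes letters and not a bound site.

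All 10 genes were far more abundant in the fruit than in the seed, where 8 of them stayed below 1 TPM in every library. In Col-0 fruit LAC4 stood highest, at 502 ± 71.2 TPM (SD, n = 3), followed by CESA4 at 432 ± 94.5, CESA7 at 326 ± 69.6, CESA8 at 181 ± 37.0 and LAC17 at 106 ± 14.6 TPM. The regulators were lower, with NST1 at 65.0 ± 9.76, NST3 at 53.0 ± 10.5 and MYB46 at 11.2 ± 2.66 TPM, and XCP1 at 2.84 ± 0.544 and MYB83 at 2.15 ± 0.21 TPM came last. Neighbours in this order whose libraries overlapped were LAC4 and CESA4, CESA4 and CESA7, NST1 and NST3, and XCP1 and MYB83. The means of lhp1-6 fruit kept the same order, but there the overlapping neighbours were CESA4 and CESA7, CESA7 and CESA8, and LAC17 and NST1. Within each single library of the group, however, the first gene of each of these pairs lay above the second.

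**Figure D1:**
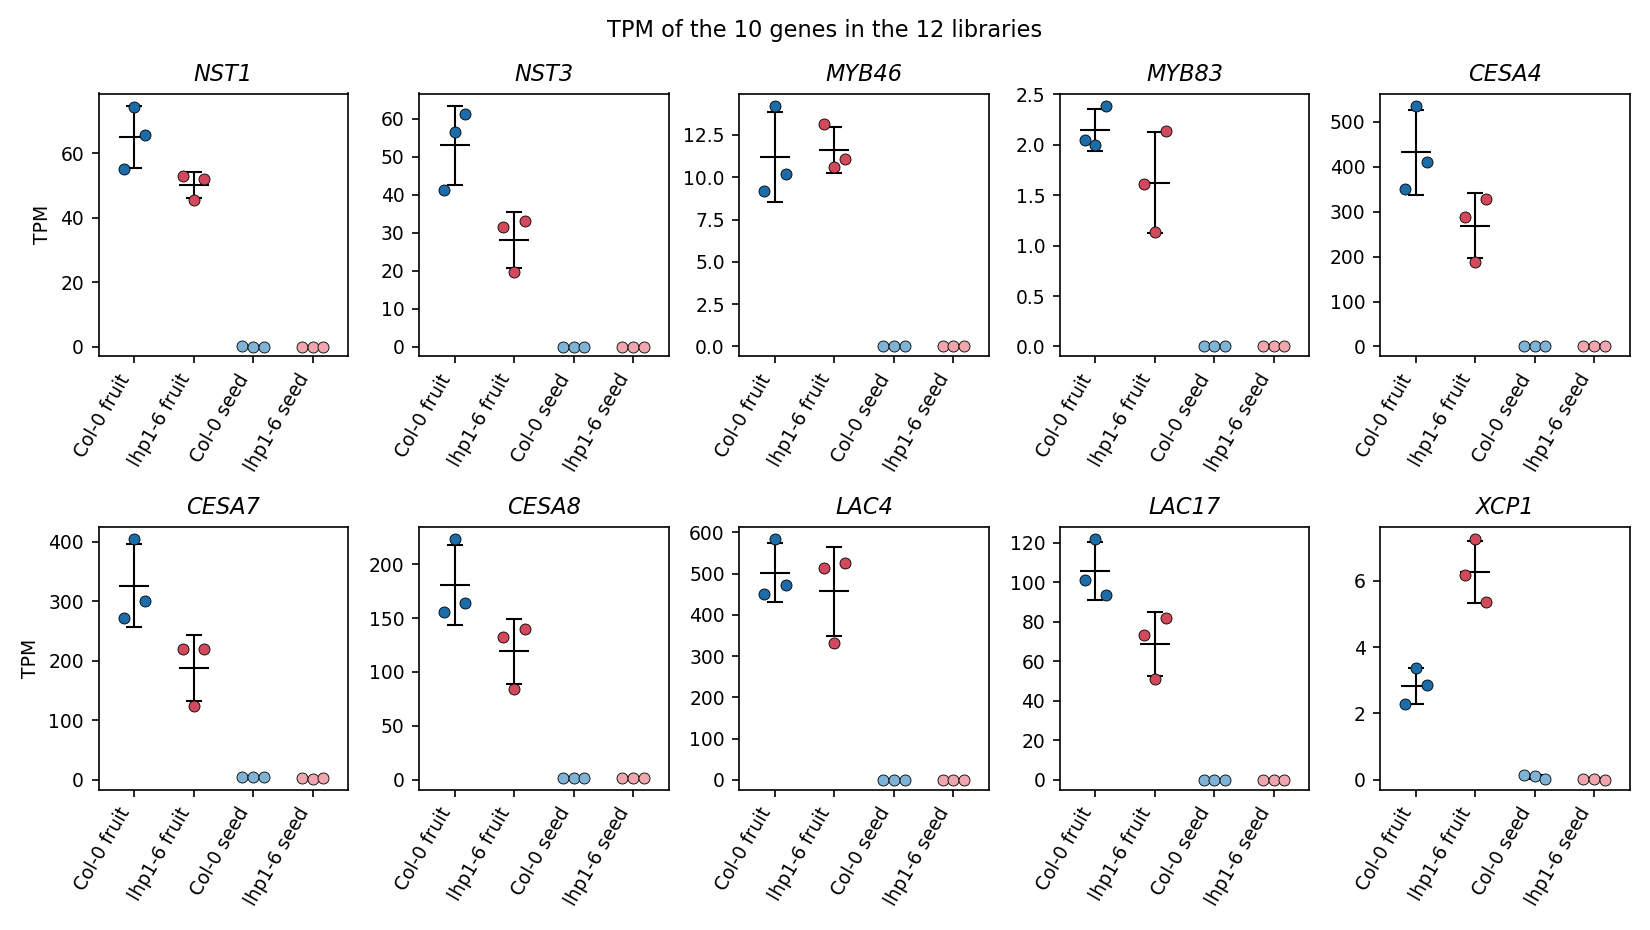
TPM (vertical axes, a separate linear scale for each gene) of the 10 genes in each of the 12 libraries, by group; points are libraries, the horizontal bar is the mean of 3 and the whiskers are 1 SD. All genes sit far lower in seed than in fruit, NST3, CESA4, CESA7, CESA8 and LAC17 are lower in lhp1-6 fruit than in Col-0 fruit, and XCP1 is higher, at 5.37 to 7.25 TPM against 2.29 to 3.38 TPM.

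In seed only CESA7 and CESA8 reached 1 TPM in any library. NST3 and MYB83 were listed at 0 in all 6 seed libraries, and NST1 and MYB46 were above 0 in 1 seed library each, at 0.0398 and 0.043 TPM. LAC4 stood at 0.162 to 0.837 TPM in seed and CESA4 at 0.243 to 0.391 TPM. CESA7 was the most abundant of the 10 there, at 4.71 to 5.31 TPM in Col-0 seed and 2.12 to 2.77 TPM in lhp1-6 seed. The ratio of the fruit mean to the seed mean was 65.7 for CESA7, 126 for CESA8 and 1189 for CESA4 in Col-0, and 74.5, 78.4 and 946 in lhp1-6. All 10 were called lower in seed than in fruit in both genotypes, where 37.7% of all genes tested were called lower in Col-0 and 41.1% in lhp1-6. Of the 10 genes 8 passed the filter of 1 TPM in 3 libraries only through fruit, so those calls had to follow and carry no weight.

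In fruit, lhp1-6 held less of NST3, the 3 cellulose synthases of the secondary wall and LAC17, and more of XCP1. Of the 10 genes 5 were called lower and 1 higher, where 9.19% of all genes tested were called lower and 5.75% higher. The libraries of the genotypes did not overlap for 6 genes that were lower and 1 that was higher, as for 15.6% and 11.3% of all genes. The median change of the 10 genes was -0.49, beside -0.03 over all genes tested. In bulk fruit tissue, fewer cells of a type and less RNA per cell cannot be told apart.

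**Figure D2:**
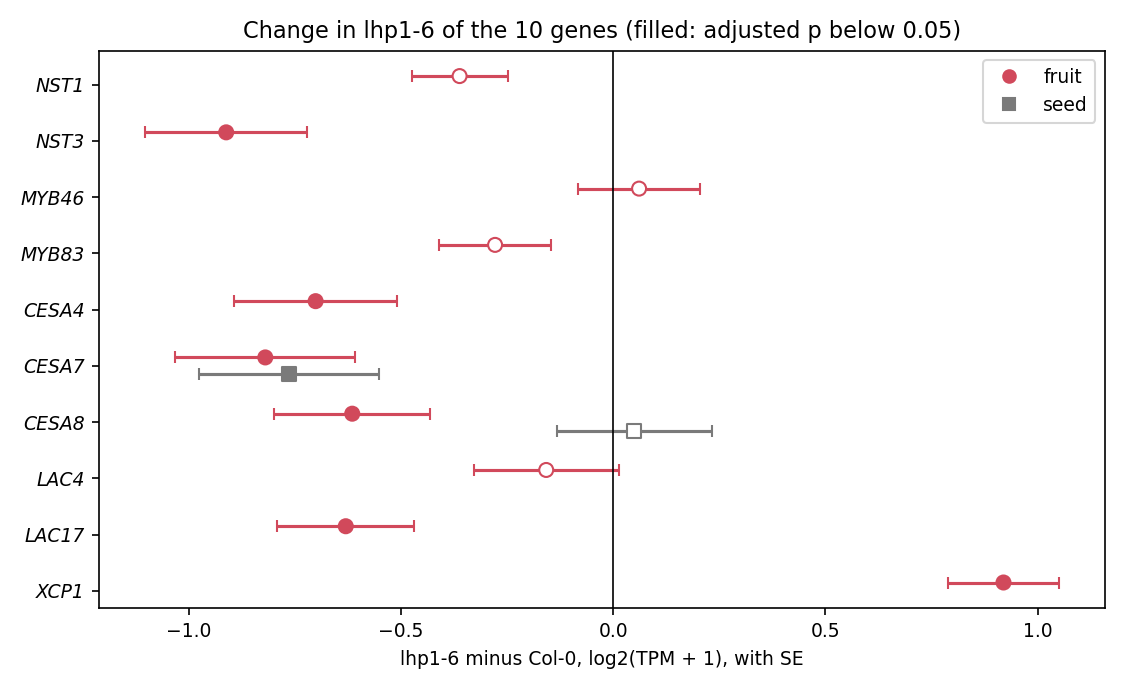
Change in lhp1-6 of the 10 genes (horizontal axis, difference in mean log2(TPM + 1), lhp1-6 minus Col-0, with the SE from limma as bars), in fruit (circles) and, for CESA7 and CESA8, in seed (squares); filled symbols have an adjusted p below 0.05. NST3, CESA4, CESA7, CESA8 and LAC17 lie left of 0 in fruit and XCP1 lies right of it at 0.92.

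Of the 2 switches NST3 fell and NST1 was not called. Col-0 fruit held 41.2, 56.5 and 61.3 TPM of NST3, and lhp1-6 fruit 31.5, 19.6 and 33 TPM. Each lhp1-6 library lay below each Col-0 library, the lhp1-6 mean was 0.529 of the Col-0 mean, and the change was -0.91 (SE 0.19, adjusted p = 0.0104). NST1, which shares much of its work with NST3, stood at 55.0, 74.5 and 65.6 TPM against 53.0, 45.4 and 52.0 TPM. Its groups did not overlap either, by a narrow margin, but the change of -0.36 (SE 0.11) missed the threshold (adjusted p = 0.0558). NST1 was not called in 18 of 22 alternative settings either, with adjusted p up to 0.203. The change passed without Col-0 fruit replicate 1 (-0.48, adjusted p = 0.0068), where calls over all genes also rose from 2980 to 5730. NST1 was 1.24 ± 0.148 times NST3 in Col-0 fruit and 1.86 ± 0.405 times in lhp1-6 fruit (n = 3 each). All 3 ratios in lhp1-6, from 1.57 to 2.32, were above the highest in Col-0 of 1.33. The ratios given here and below were chosen after the values were seen and were not tested.

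The MYB pair below the switches was not called. Col-0 fruit held 9.21, 14.2 and 10.2 TPM of MYB46, lhp1-6 fruit held 13.1, 10.6 and 11.1 TPM, and the groups overlapped (0.06, SE 0.14, adjusted p = 0.826). The sign of this value turned without Col-0 fruit replicate 1 (-0.06) or without the first lhp1-6 fruit library (-0.02). MYB83 stood at 2.05, 2.0 and 2.39 TPM against 1.61, 1.13 and 2.13 TPM, with 1 lhp1-6 library inside the Col-0 range (-0.28, SE 0.13, adjusted p = 0.188). Per unit of NST3, MYB46 was at 0.214 ± 0.0436 in Col-0 fruit and at 0.431 ± 0.104 in lhp1-6 fruit, with no overlap between the groups.

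The 3 cellulose synthases of the secondary wall fell together. Col-0 fruit held 351, 536 and 410 TPM of CESA4, and lhp1-6 fruit 289, 189 and 328 TPM (-0.70, SE 0.19, adjusted p = 0.0337). CESA7 stood at 272, 404 and 301 TPM against 220, 124 and 219 TPM (-0.82, SE 0.21, adjusted p = 0.0269). CESA8 stood at 155, 223 and 164 TPM against 133, 84.2 and 140 TPM (-0.61, SE 0.18, adjusted p = 0.0467). None of the 3 overlapped between the genotypes, and the lhp1-6 means were 0.621, 0.576 and 0.658 of the Col-0 means. In each gene the highest Col-0 library was replicate 2 and the lowest lhp1-6 library was replicate 2. Without Col-0 fruit replicate 2 the changes were -0.54, -0.65 and -0.45 (adjusted p = 0.109, 0.0893 and 0.148), and without lhp1-6 fruit replicate 2 they were -0.47, -0.54 and -0.39 (adjusted p = 0.0905, 0.0549 and 0.125), so the calls rested on those libraries. The call of CESA4 was also lost without Col-0 seed replicate 2 or lhp1-6 seed replicate 3, and that of CESA8 in 16 of 22 settings. Without Col-0 fruit replicate 3 none of the 3 was called either (adjusted p = 0.0734, 0.055 and 0.0754).

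The proportions of the subunits to each other were computed per library. CESA4 was 2.39 ± 0.124 times CESA8 in Col-0 fruit and 2.25 ± 0.0852 times in lhp1-6 fruit, with overlapping libraries. CESA7 was 1.80 ± 0.0436 times CESA8 in Col-0 and 1.56 ± 0.0944 times in lhp1-6, and here the highest lhp1-6 library, at 1.66, lay below the lowest Col-0 library, at 1.75. Against NST3, CESA4 was at 8.23 ± 1.42 in Col-0 and 9.58 ± 0.393 in lhp1-6, also overlapping.

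Among the 10 cellulose synthase genes of the genome, CESA4, CESA7 and CESA8 took a smaller share in lhp1-6 fruit. They held 50.9%, 59.0% and 58.9% of the TPM of all cellulose synthase genes in the Col-0 fruit replicates and 46.1%, 39.5% and 44.8% in those of lhp1-6. The groups were apart, with means of 56.3 ± 4.64% and 43.5 ± 3.53%, a difference of -12.8 percentage points (two-sided exact permutation test, p = 0.1, the smallest that 3 against 3 can give; adjusted p = 0.114 over 8 such tests). None of the 7 other cellulose synthase genes was called in fruit, with a median change of 0.07 and changes from -0.08 for CESA3 to 0.18 for CESA1, both subunits of the primary wall complex. In seed the 3 genes held 0.822 ± 0.102% of the cellulose synthase TPM in Col-0 and 0.685 ± 0.0773% in lhp1-6. CESA10 led there, with 45.5 ± 1.0% and 40.3 ± 1.05%, followed by CESA3. Reads of close relatives such as CESA1 and CESA10 could have been split in the counting.

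**Figure D3:**
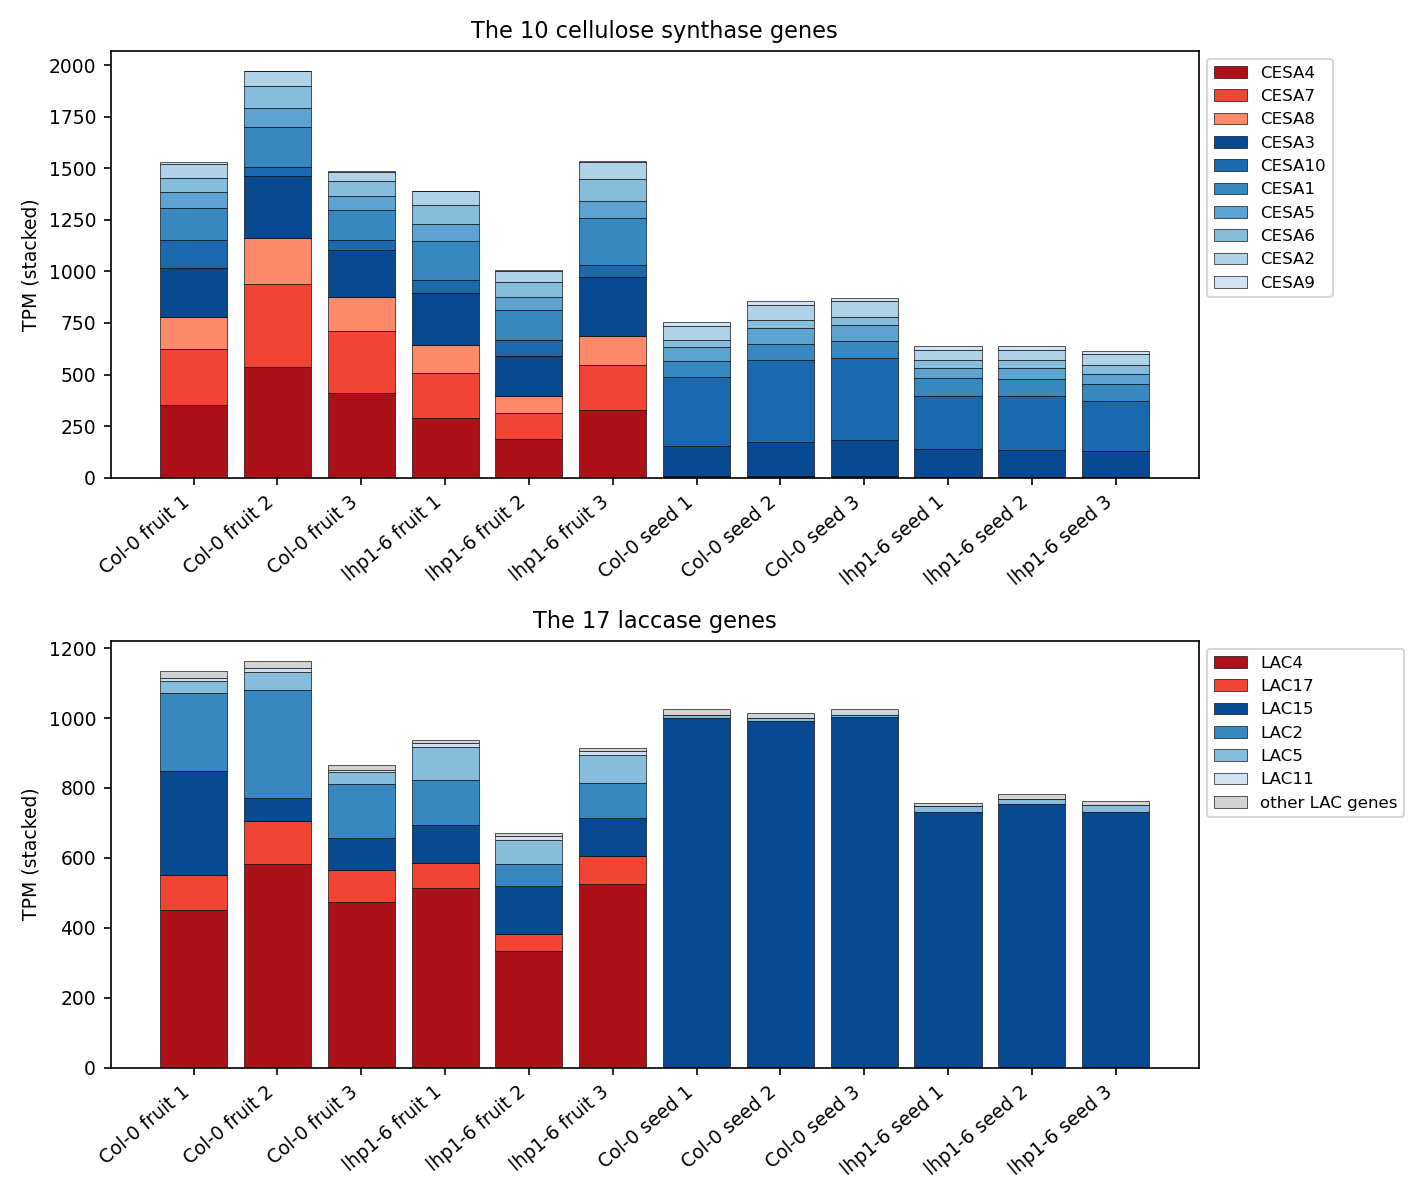
Stacked TPM (vertical axes, linear) of the 10 cellulose synthase genes (top) and the 17 laccase genes (bottom) in each of the 12 libraries; red shades are CESA4, CESA7 and CESA8 or LAC4 and LAC17, blue shades the other named genes, and grey the remaining laccases summed. The red part of the cellulose synthases is 50.9% to 59.0% in Col-0 fruit and 39.5% to 46.1% in lhp1-6 fruit, and red is all but absent in seed, where CESA10 and LAC15 lead.

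Of the laccase pair LAC17 fell and LAC4 was not called. Col-0 fruit held 101, 122 and 93.7 TPM of LAC17 and lhp1-6 fruit 73.5, 50.8 and 82.1 TPM, with no overlap (-0.63, SE 0.16, adjusted p = 0.0257). Without replicate 2 of Col-0 or of lhp1-6 the change was -0.52 or -0.43 (adjusted p = 0.0885 and 0.0625), and with a pseudocount of 0.1 LAC17 was not called either (adjusted p = 0.132). LAC4 stood at 451, 584 and 473 TPM against 513, 333 and 525 TPM and was not called (-0.16, SE 0.17, adjusted p = 0.59). Its groups overlapped, and without lhp1-6 fruit replicate 2, the lowest library, its change was 0.06. LAC4 was 4.76 ± 0.297 times LAC17 in Col-0 fruit and 6.64 ± 0.308 times in lhp1-6 fruit, and 1.18 ± 0.0998 against 1.71 ± 0.0991 times CESA4. Neither ratio overlapped between the genotypes.

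LAC4 and LAC17 together held 58.2 ± 8.67% of the laccase TPM in Col-0 fruit and 62.0 ± 4.66% in lhp1-6 fruit (difference 3.78 percentage points, two-sided exact permutation test, p = 0.6), a difference that turned to -1.03 without Col-0 fruit replicate 1. LAC5 rose in fruit from 33.6, 51.2 and 33.1 TPM to 94.4, 67.9 and 79.2 TPM (1.03, adjusted p = 0.00274), and in seed by 1.10 (adjusted p = 0.00405). LAC10 fell from 7.82, 7.31 and 5.09 TPM to 1.88, 2.05 and 1.65 TPM in fruit (-1.42, adjusted p = 0.000293) and by 1.36 on the log2 scale in seed (adjusted p = 0.00121). In both genes the genotypes stood apart in both tissues. LAC2 (-1.22, adjusted p = 0.012) and LAC12 (-1.12, adjusted p = 0.0137) fell in fruit, though not in a fit of just the 6 fruit libraries (adjusted p = 0.104 and 0.105), and LAC12 was not called without lhp1-6 fruit replicate 2 (adjusted p = 0.0535). LAC11, which acts with LAC4 and LAC17 in lignification, was not called (0.35, adjusted p = 0.099). In all 1 of the 9 tested laccases other than LAC4 and LAC17 rose in fruit, 3 fell and 5 were not called. Over all genes tested 5.75% were called higher and 9.19% lower. LAC15, also known as TT10 and active in the seed coat, held 97.6 ± 0.112% of the laccase TPM in Col-0 seed and 96.3 ± 0.124% in lhp1-6 seed. LAC1, LAC3, LAC7, LAC9, LAC14 and LAC16 did not pass the filter.

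XCP1 moved the other way. Its libraries read 2.29, 3.38 and 2.85 TPM for Col-0 fruit, against 6.15, 7.25 and 5.37 TPM for lhp1-6 fruit. All lhp1-6 libraries lay above all Col-0 libraries, the mean was 2.20 times that of Col-0, and the change was 0.92 (SE 0.13, adjusted p = 0.00139). The call held under all 22 alternative settings, with adjusted p from 0.000494 to 0.0379. CESA4 was 152 ± 7.51 times XCP1 in Col-0 fruit and 44.7 ± 17.7 times in lhp1-6 fruit. XCP2, the close relative of XCP1 in vessel autolysis, stood at 17, 20.0 and 21.7 TPM against 22.4, 31.6 and 27.5 TPM, with no overlap, but was not called (0.45, SE 0.14, adjusted p = 0.0575). XCP2 was 7.00 ± 0.925 times XCP1 in Col-0 fruit and 4.38 ± 0.735 times in lhp1-6 fruit.

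The 5 calls of lower genes in fruit depended on the libraries fitted. With the 6 fruit libraries fitted alone none was left (adjusted p = 0.0901 to 0.202), and only XCP1 was called. Without replicate 2 of Col-0 or of lhp1-6 only NST3 of the 5 was called. Of the fruit libraries lhp1-6 replicate 2 was the lowest for 8 of the 10 genes and Col-0 replicate 2 the highest for 7. After subtraction of the estimated seed RNA all 5 were called (adjusted p = 0.00251 to 0.0172), and NST1 with them (-0.39, adjusted p = 0.00741).

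In seed, CESA7 was the one gene of the 10 called, where 10.2% of all genes tested were called lower. Col-0 seed held 5.31, 4.71 and 4.85 TPM of it and lhp1-6 seed 2.77, 2.12 and 2.67 TPM, with no overlap (-0.76, SE 0.21, adjusted p = 0.042). Over all genes tested the median change in seed was -0.15, and after median-of-ratios rescaling or quantile normalisation, which take that shift away, CESA7 was not called (-0.62, adjusted p = 0.145, and -0.52, adjusted p = 0.238). Leaving out any 1 of the 6 seed libraries, or Col-0 fruit replicate 3, also ended the call (adjusted p = 0.0503 to 0.12), as did a pseudocount of 5 (adjusted p = 0.202). CESA8 stood at 1.40, 1.52 and 1.38 TPM against 1.65, 1.43 and 1.47 TPM and was not called (0.05, SE 0.18, adjusted p = 0.891).

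The effect of lhp1-6 was called different between the tissues for XCP1 alone. The seed effect minus the fruit effect was -1.02 (SE 0.19, adjusted p = 0.0127), and with fruit and seed of the same genotype and number as pairs it was not called (adjusted p = 0.0519). As XCP1 stood at 0 to 0.156 TPM in seed, this value is close to the fruit change with its sign turned. Over all genes tested, 1.72% were called for a higher effect in seed and 3.8% for a lower one. For NST3, with no seed transcript, the difference of 0.91 is the fruit change with its sign turned (adjusted p = 0.0765). It was called without Col-0 fruit replicate 1 (adjusted p = 0.0159) and with the seed share taken off (adjusted p = 0.0222). With any other library left out it was not called (adjusted p = 0.0671 to 0.161).

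Of the 8 NAC switches outside the set 5 were tested, and in fruit 1 rose, 1 fell and 3 were not called. Beside this and the fruit counts of the lists below, 9.19% of all genes tested were called lower and 5.75% higher. NST2, which acts with NST1 in anther walls, stood at 20.3, 30.0 and 17.7 TPM against 22.5, 12.9 and 22.9 TPM (-0.22, adjusted p = 0.566). VND4, a vessel-type switch, rose from 1.17, 1.21 and 1.18 TPM to 3.11, 3.40 and 2.61 TPM, with no overlap (0.88, SE 0.10, adjusted p = 0.000459). VND7, the switch of protoxylem vessels, stood at 1.20, 1.53 and 2.06 TPM against 1.11, 1.12 and 0.641 TPM. Its groups did not overlap, with lhp1-6 lower, but it was not called (-0.40, adjusted p = 0.0826). VND6, the switch of metaxylem vessels, was at 0.297 TPM or less in every library and was not tested. VND2 fell by 0.40 on the log2 scale (adjusted p = 0.03), and leaving out replicate 2 or 3 of Col-0 fruit or replicate 1 or 3 of lhp1-6 fruit ended that call.

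Of the 15 further regulators downstream of the switches 2 fell in fruit and 13 were not called, with a median of -0.24 and 14 of 15 values below 0. Their summed TPM overlapped, at 616 to 806 in Col-0 fruit and 463 to 662 in lhp1-6 fruit, where replicate 2 was the lowest. MYB43 fell from 50.9, 75.7 and 76.1 TPM to 39.0, 29.0 and 40.5 TPM (-0.87, SE 0.19, adjusted p = 0.0117). MYB54 fell from 2.01, 2.77 and 2.5 TPM to 1.58, 0.721 and 1.03 TPM (-0.71, SE 0.15, adjusted p = 0.0118). Neither overlapped between the genotypes, and neither was called in a fit of just the 6 fruit libraries (adjusted p = 0.0661 and 0.1). The lignin regulators MYB58 (-0.12, adjusted p = 0.688) and MYB63 (-0.15, adjusted p = 0.701) were not called in fruit. Among 7 repressors of secondary wall formation VNI2, which binds VND7, rose (0.65, adjusted p = 0.021; 0.0623 without lhp1-6 fruit replicate 2), BLH6 fell (-0.34, adjusted p = 0.0402), with its call lost without any 1 of 10 libraries, and 5 were not called.

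Genes for the rest of the wall fell in part. Of 12 xylan genes 5 fell in fruit, namely GXM1, GUX1, IRX10, IRX14 and IRX15, and 7 were not called, with a median of -0.54. Over all genes tested 9.19% were called lower. Of these 5 calls none was left with the 6 fruit libraries fitted alone (adjusted p = 0.0596 to 0.166). There was 1 left without Col-0 fruit replicate 2, that of GXM1, 2 without Col-0 replicate 3 or lhp1-6 replicate 2, and 3 without lhp1-6 replicate 3. GXM1, a methyltransferase of the glucuronic acid side chains of xylan, fell from 106, 104 and 92.0 TPM to 72.5, 53.0 and 43.0 TPM (-0.86, SE 0.15, adjusted p = 0.00476). GUX1, which adds those side chains, fell from 74.8, 98.8 and 111 TPM to 55.7, 37.9 and 65.9 TPM (-0.84, SE 0.19, adjusted p = 0.0164), though not without Col-0 fruit replicate 2 or 3 (adjusted p = 0.0514 and 0.0604). The genotypes stood apart in both. Of 8 genes of cellulose assembly CTL2, a chitinase-like protein, fell (-0.64, adjusted p = 0.0289), a call lost without replicate 2 of either genotype or Col-0 fruit replicate 3 (adjusted p = 0.0675 to 0.098). With the 6 fruit libraries alone CTL2 was not called either (adjusted p = 0.173). TED6, which binds the secondary wall synthases in vessels, rose (0.43, adjusted p = 0.0489), but the call was lost in 14 of 22 settings, among them leaving out 10 of the 12 libraries in turn.

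Of 4 tested lignin peroxidases 2 fell, 1 rose and 1 was not called. PRX64 fell in fruit from 117, 161 and 119 TPM to 55.0, 41.0 and 62.0 TPM (-1.32, SE 0.20, adjusted p = 0.00205). In seed PRX64 rose from 0.716, 0.709 and 1.30 TPM to 3.97, 2.76 and 4.47 TPM (1.31, adjusted p = 0.00435), and the tissues differed in the effect (2.63, SE 0.28, adjusted p = 0.000859). PRX66 fell in fruit (-1.24, adjusted p = 0.00609; 0.0655 with the 6 fruit libraries alone) and PRX52 rose in fruit (1.02, adjusted p = 0.00484) and in seed (2.14, adjusted p = 0.00027). Of 13 genes of lignin monomer synthesis only C4H fell in fruit, from 599, 710 and 666 TPM to 503, 325 and 466 TPM (-0.63, SE 0.14, adjusted p = 0.0145; 0.129 with the 6 fruit libraries alone). The other 12 were not called, and all 13 values were below 0, with a median of -0.19. Their summed TPM overlapped between the genotypes, at 8380.1 to 10124.5 in Col-0 fruit and 6433 to 8887 in lhp1-6 fruit. Replicate 2 of lhp1-6 was the lowest.

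**Figure D4:**
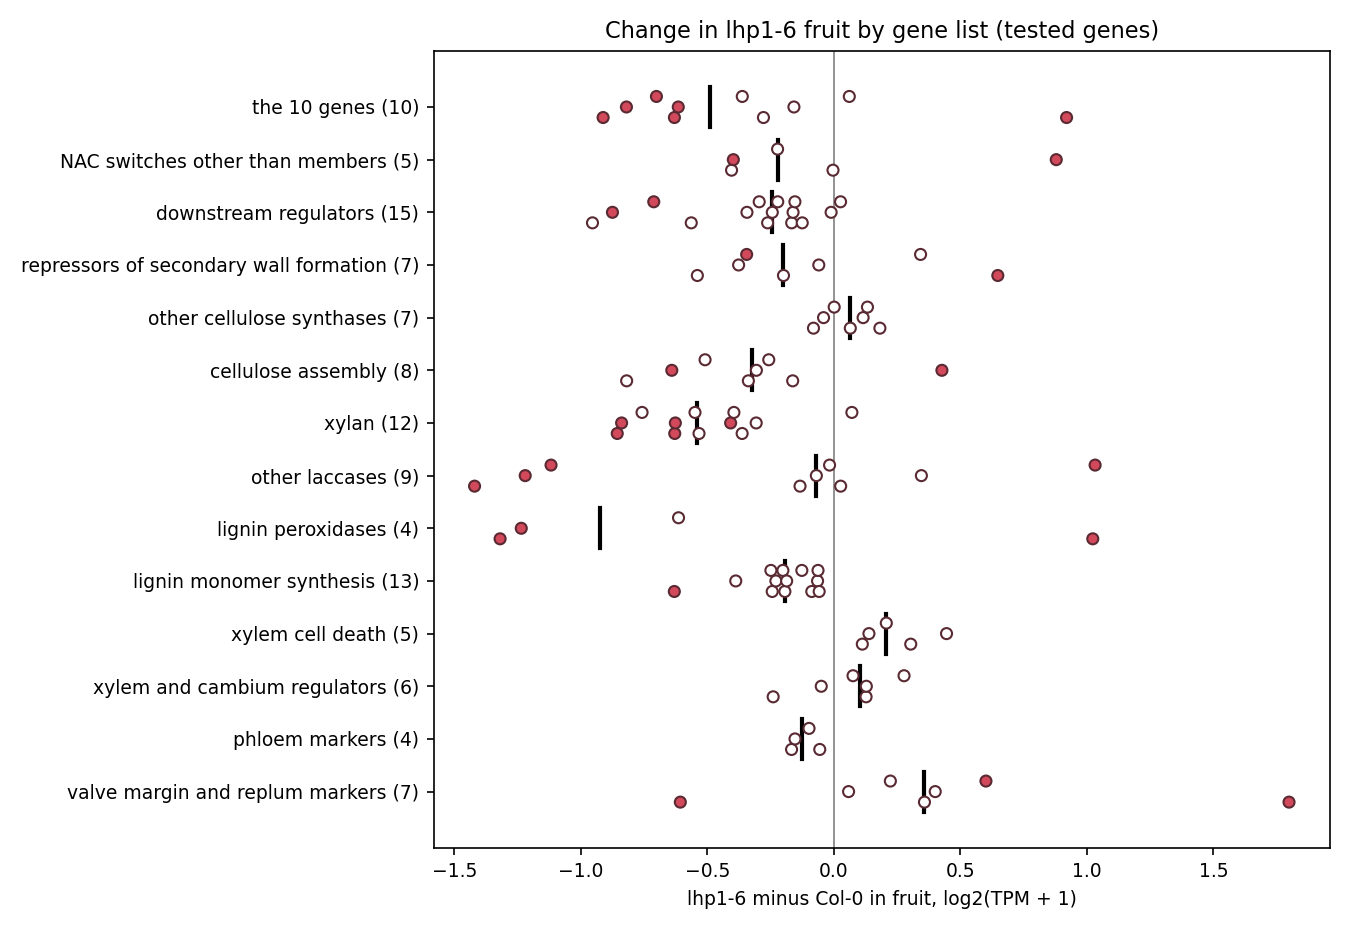
Change in lhp1-6 fruit (horizontal axis, difference in mean log2(TPM + 1), lhp1-6 minus Col-0) of each tested gene, one row per gene list with its number of tested genes in parentheses; filled points have an adjusted p below 0.05 and the vertical bar is the median of the list. The medians of the 10 genes (-0.49), xylan genes (-0.54) and peroxidases (-0.92) lie left of 0, and that of the other cellulose synthases is 0.07.

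Markers of other tissues of the fruit were set beside these results. None of 4 phloem markers, 6 regulators of cambium and xylem identity and 5 genes of xylem cell death was called in fruit, with medians of -0.13, 0.10 and 0.21. Their summed TPM overlapped between the genotypes, at 534 to 769 and 556 to 670 for phloem and at 115 to 199 and 143 to 205 for cell death. Among 7 markers of the valve margin and replum, ADPG1, a polygalacturonase of pod opening, rose from 59.5, 83.7 and 90.7 TPM to 301, 244 and 266 TPM (1.80, SE 0.18, adjusted p = 0.000207). SHP1, a valve margin identity gene, rose (0.60, adjusted p = 0.00329), though not in a fit of just the 6 fruit libraries (adjusted p = 0.0512). FUL fell (-0.61, adjusted p = 0.0241) but was not called in 6 of 22 settings, with adjusted p up to 0.272. The summed TPM of the 7 did not overlap, at 693 to 947 in Col-0 fruit and 1026 to 1112 in lhp1-6 fruit. That gap rested on ADPG1, and without it the sums of the genotypes overlapped. The part of these tissues in the changes of the 10 genes was not tested.

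In seed, 2 of the 15 downstream regulators rose, 2 fell and 11 were not called, and 5 of the 12 xylan genes fell. Of all 19946 genes tested 10.2% were called lower in seed and 369 genes higher. Of the 5 xylan genes IRX14, FRA8 and TBL29 were not called after median-of-ratios rescaling (adjusted p = 0.112, 0.0732 and 0.0667). Nor were they after quantile normalisation (adjusted p = 0.0785, 0.0533 and 0.118). The rise of MYB58 (0.62) was not called in a fit of just the seed libraries (adjusted p = 0.072) or with no filter (adjusted p = 0.0507). Leaving out replicate 2 or 3 of Col-0 seed or replicate 1 or 3 of lhp1-6 seed also ended that call (adjusted p = 0.13 to 0.163). So did leaving out replicate 2 or 3 of Col-0 fruit or replicate 1 or 3 of lhp1-6 fruit (adjusted p = 0.0511 to 0.0551). SND3, a NAC factor of the secondary wall, rose in seed from 1.09, 1.89 and 0.785 TPM to 9.98, 8.64 and 9.98 TPM (2.25, SE 0.23, adjusted p = 0.000869), where in fruit it was not called (-0.22, adjusted p = 0.57), and the effects differed (2.47, SE 0.32, adjusted p = 0.00264). MYB63 fell in seed from 6.31, 5.61 and 6.07 TPM to 1.18, 2.79 and 1.27 TPM (-1.39, SE 0.22, adjusted p = 0.00517). In both genes the genotypes stood apart. GXM1 fell in seed as well (-0.83, adjusted p = 0.0091), as did IRX8 (-0.97, adjusted p = 0.0093; -0.34 and 0.157 with a pseudocount of 5), a further xylan gene, and ACL5 (-0.65, adjusted p = 0.00648), whose product thermospermine restrains xylem differentiation. CESA5, a primary wall subunit at work in the seed coat, was called in seed (-0.49, adjusted p = 0.0473) but not after median-of-ratios rescaling or quantile normalisation. The call was also lost with no filter, with no mean trend and without any 1 of the Col-0 seed libraries. Leaving out replicate 1 or 3 of lhp1-6 seed or of lhp1-6 fruit ended it too.

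The 8 genes outside the set whose profile over the 12 libraries was nearest to the mean profile of the 3 cellulose synthases were found by the root mean square difference of centred log2(TPM + 1) values. They were SWEET13 at 0.158, CSLG3 at 0.166, PARVUS at 0.168, AT2G40130 at 0.193, SND2 at 0.194, BOR5 at 0.198, NIP6;1 at 0.244 and AT1G75900 at 0.262. Of these SWEET13 is a sugar transporter, PARVUS a glycosyltransferase of xylan synthesis, SND2 a NAC factor of the secondary wall and NIP6;1 a boric acid channel. LAC17 lay as near, at 0.162, while CESA8, CESA7 and CESA4 lay at 0.349, 0.441 and 0.731 from their own mean, and CESA4 was the one nearest to 0 in seed. The most distant of the 10 genes were MYB83 at 2.52 and XCP1 at 2.21. The values were centred but not scaled, so the distance depends on the size of the gap between fruit and seed. For genes at a few TPM in fruit that gap is small by construction, and their distance does not show a different pattern.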

How the data were processed

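Bulk RNA-seq of total RNA was deposited by the authors as TPM, 1 table per library with 26925 genes. Per the labels' protocols, RNA was purified with an RNeasy kit and read as 100 bp paired ends on a DNBSEQ instrument. Per the submitters' processing notes, cutadapt 1.9.1, STAR 2.5, featureCounts and TAIR10 were used; the strand setting was not given in the sources used here. Listed TPM summed to 977751 to 986706 per library. TPM keep no depth, so no counting intervals were made. Groups and numbers came from the labels. Whether silique pools of a group were taken from different plants is not given there, and the p-values then measure only how these samples spread, which may be technical.

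Values were tested as log2(TPM + 1) with limma 3.58.1, run in R 4.3.3, with 1 mean per group over all 12 libraries and a mean trend in the variances, on genes reaching 1 TPM in 3 or more libraries, and were tested on simulated data. Family shares were compared by exact permutation. Sequences came from TAIR10.1, whose annotation matched all 10 genes and all 137 list genes. Figures were drawn with matplotlib 3.10.9.

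The members, lists and naming rule were chosen with earlier results of these data known. The rule took the 10 genes, LHP1, every CESA and LAC gene, up to 3 genes per list and comparison by smallest adjusted p, NST2, VND6, VND7 and XCP2, and the 8 nearest profiles; a part of these is given. The deviations of fruit and seed of 1 genotype and number were positively but weakly correlated (r across genes 0.113 to 0.192 in Col-0 and 0.128 to 0.311 in lhp1-6). Numbers were therefore taken to pair tissues within a genotype, but only in the replicate block. Between genotypes r ran from -0.397 to 0.421 and numbers were not taken to pair. The main fit used no pairs, so tissue differences are from the unpaired fit unless pairs are named. For the seed share, genes with at least 50 TPM in each seed library of the genotype, other than storage genes, were taken, and percentile 1 of their fruit to seed ratio was used. Alternatives were other pseudocounts, filters, scalings, variance models, the comparison's libraries alone, the replicate block, the seed share taken off, and each library left out.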

Additional observations from a re-analysis of the deposited data

Results flagged for a closer look

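XCP1, the xylem protease, differed between tissues in its lhp1-6 effect by a test of the difference itself: seed minus fruit was -1.02 (SE 0.19, limma, adjusted p = 0.0127). It rose in lhp1-6 fruit by 0.92 and was at 0.0389 to 0.156 TPM in Col-0 seed and 0 to 0.0381 TPM in lhp1-6 seed, so the seed libraries could hardly show a change of that size. With fruit and seed paired by number the adjusted p was 0.0519.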

How the results depend on the processing

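Of the 10 genes 6 were called in fruit, against 1 with the 6 fruit libraries alone and 2 to 7 with each library left out. In seed 1 was called, against 2 with a pseudocount of 0.1 or the 6 seed libraries alone, 0 with a pseudocount of 5, median-of-ratios rescaling, quantile normalisation or the replicate block, and 0 to 1 with a library left out. For the difference between tissues 1 was called, against 0 with the replicate block, 2 with the seed share taken off and 1 to 3 with a library left out. Signs turned for uncalled values: the tissue difference of MYB46 (0.10) and CESA7 (-0.13) with a pseudocount of 0.1 and of LAC4 (0.052) with a pseudocount of 5. With a library left out these ran from -0.21 to 0.077 for MYB46 and from -0.22 to 0.20 for CESA7, and the fruit change from -0.057 to 0.23 for MYB46 and from -0.27 to 0.056 for LAC4. The share of LAC4 and LAC17 (lhp1-6 fruit minus Col-0 fruit) ran from -1.03 to 7.39 percentage points, and seed minus fruit in lhp1-6 was -68.1 with the seed share taken off. Over all genes 2980 were called in fruit, against 875 with the fruit libraries alone, 4779 with the seed share taken off and 1829 to 5730 with a library left out. The split of 1146 higher and 1834 lower became 1665 and 1504 after quantile normalisation. In seed 2410 were called, 989 and 1069 after the rescalings, 5356 alone and 662 to 4154 with a library left out, and the split of 369 and 2041 became 473 and 516, or 512 and 557. For the difference 1100 were called, 497 with the block, 3055 with the seed share taken off and 427 to 4085 with a library left out. The cause was not tested. Between genotypes, where the numbers share only a number, the block gave 4 of the 10 genes in fruit, without CESA4 (adjusted p = 0.0567) and CESA8 (0.0784), and did not call CESA7 in seed (0.0631). MYB83 has no value at the filter of 5 TPM. In seed the levels near 0 limit what could be seen for 8 of the 10 genes.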
